A study of Homo sapiens with 18 samples.

Results

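The second of a pair of short hairpins against the aryl hydrocarbon receptor, shAHR2, was examined in U-87MG cells that expressed IL4I1. U-87MG is an established human glioblastoma line. The samples were chosen by their labels alone: 3 arrays of IL4I1 cells with shAHR2 were set against 3 arrays of IL4I1 cells with the non-targeting hairpin shCtrl, 6 of the 18 arrays of the series. The other 12 arrays held the same hairpins without IL4I1 and a different AHR hairpin, shAHR1, with and without IL4I1. Their values are described below mainly where they show whether a change differed. They also entered the fit over all 18 arrays that gave the standard errors, p-values and calls. IL4I1 was delivered by a lentivirus made from the vector pLX301 carrying the human cDNA, and cells without IL4I1 carried the empty pLX301, both under puromycin selection. The hairpins came from shERWOOD UltramiR lentiviruses. All cells therefore carried a pLX301 vector and a hairpin, and all were in culture for 120 hours before total RNA was taken. Arrays of a group were named biological replicates and came from independent experiments on stable lines. The number of infections behind each line was not given, so differences between lines that arose at infection or selection cannot be told apart from those of the hairpin, and p-values measure the spread between these arrays. Total RNA was read on 1-colour Affymetrix arrays, and 15529 named genes had a deposited log2 expression value on every array.

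IL4I1 is a secreted oxidase of aromatic amino acids, and its keto acid products give rise to ligands of AHR. AHR waits in the cytosol with chaperones, enters the nucleus when a ligand binds, pairs there with ARNT and binds DNA at short elements built around the letters GCGTG. Its best known targets are detoxifying cytochromes P450 and its own brakes, the repressor AHRR and the ADP-ribosyltransferase TIPARP. In glioblastoma AHR is studied for its part in motility and in the escape from immune control.

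Stretches before the transcript start of 6 genes described below, 3 of the AHR core targets and 3 of the genes that fell most, hold that core. They are shown so that a reader can see the letters AHR and ARNT recognise beside genes whose transcripts were measured. The sequences are from RefSeq, build GRCh38.p14, each read 5′ to 3′ on the strand of its gene, with the core GCGTG or its reverse complement CACGC in capitals. They lie at chr10:96043356-96043416 (CCNJ, + strand), chr9:88990677-88990737 (S1PR3, +), chr2:227813754-227813814 (CCL20, +), chr4:88159075-88159109 (ABCG2, -), chr3:156674354-156674414 (TIPARP, +) and chr5:321656-321713 (AHRR, +).
CCNJ: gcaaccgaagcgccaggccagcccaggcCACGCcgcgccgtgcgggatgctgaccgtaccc
S1PR3: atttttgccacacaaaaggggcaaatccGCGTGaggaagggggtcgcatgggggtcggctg
CCL20: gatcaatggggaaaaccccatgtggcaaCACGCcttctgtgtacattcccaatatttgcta
ABCG2: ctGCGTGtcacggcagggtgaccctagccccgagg
TIPARP: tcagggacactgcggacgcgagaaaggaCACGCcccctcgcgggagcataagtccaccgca
AHRR: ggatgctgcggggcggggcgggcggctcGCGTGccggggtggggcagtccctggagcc
The core is short and common. On either strand it stood in 36.5% of the 35116 RefSeq promoter windows, which run from 250 bases before a start to 50 after it. Of the 12265 tested genes with a window, 55.0% had the core in at least 1 window. The share was 62.1% of the 58 genes with a window among those that fell under shAHR2 and 45.7% of the 94 among those that rose. The longer form TNGCGTG stood in 5.51% of windows, and 8.8% of tested, 13.8% of fallen and 5.32% of risen genes had it. It contains the core, so each of its matches is also a match of the core. Of the 17 AHR core targets and named falling genes with a window, 58.8% had the core and 17.6% the longer form. These shares were not tested, and a match describes letters and not a bound site.

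The targeted gene was low on every shAHR2 array. AHR read 9.90, 9.84 and 10.33 on the log2 scale on the 3 shCtrl arrays with IL4I1 and 7.74, 7.45 and 7.65 on the 3 shAHR2 arrays. Even the nearest arrays of the groups stood more than 2 units apart. The change was -2.41 ± 0.16 (SE of the fitted log2 change, n = 3 per group; limma adjusted p = 1.3e-06). The IL4I1 transcript read 12.87, 12.83 and 12.96 in shCtrl cells and 12.89, 12.85 and 12.94 in shAHR2 cells, a difference of 0.01 ± 0.22 (limma adjusted p = 1.0). The ranges of the arrays overlapped.

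The arrays had like distributions. Array medians ran from 6.46 to 6.53, the 6 arrays correlated pairwise between 0.918 and 0.952, and 0 pairs of arrays in the series were identical. A single array outside the groups compared, replicate 2 of shCtrl without IL4I1, had a wider spread of relative log expression (interquartile range 0.529 against 0.319 to 0.472 on the others). The glioma markers VIM, FN1 and CHI3L1 were high, with means of 12.18, 12.27 and 11.75, but the neural stem cell filament NES averaged 5.94, below the median of all values (6.51), and the 9 measured markers of a mesenchymal glioma line averaged 10.20 to 10.25 on the shCtrl and 10.37 to 10.38 on the shAHR2 arrays. Only 5 of 11 leukocyte markers were measured, PTPRC, CD3E, ITGAM, ITGAX and FCER1G. They averaged 6.75 to 7.03 with shCtrl and 6.34 to 6.58 with shAHR2, a median change of -0.49 with 0 of 5 called. Epithelial and kidney markers averaged 6.47 to 6.67 and 6.53 to 6.85, endothelial markers 5.35 to 5.66 and 5.62 to 5.79, also with 0 called.

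With AHR lowered by shAHR2, 119 genes rose and 76 fell in IL4I1 cells. The 195 called genes were 1.26% of the 15529 tested (0.766% higher and 0.489% lower; limma, Benjamini-Hochberg adjusted p under 0.05). In all 195 every shAHR2 array lay on the same side of every shCtrl array, which was so in 18.8% of the genes tested. Called genes changed by a median of 1.03 upward and -1.04 downward, and 67 rose and 42 fell by at least 1 on the log2 scale. The median change of all genes was 0.02. At an unadjusted p under 0.05 there were 1820 genes, or 11.7%. In such bulk RNA fewer cells of a type and less RNA per cell cannot be told apart.

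That count depended on which arrays entered the fit. Fitted on the 6 arrays alone, 39 genes were called, 19 higher and 20 lower. Of the 63 called genes named by rule or list, 24 were called in that fit, among them 10 of the 15 falling and 5 of the 15 rising genes named by size. The genes that lost their call there are not all marked below. Leaving out 1 shAHR2 array gave 97, 81 and 75 calls for replicates 1, 2 and 3. Leaving out shCtrl replicate 1, 2 or 3 gave 78, 90 and 168. The calls of 54 genes, 35 that rose and 19 that fell, held in each of the 6 leave-out fits, which drop 1 array each.

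**Figure D1:**
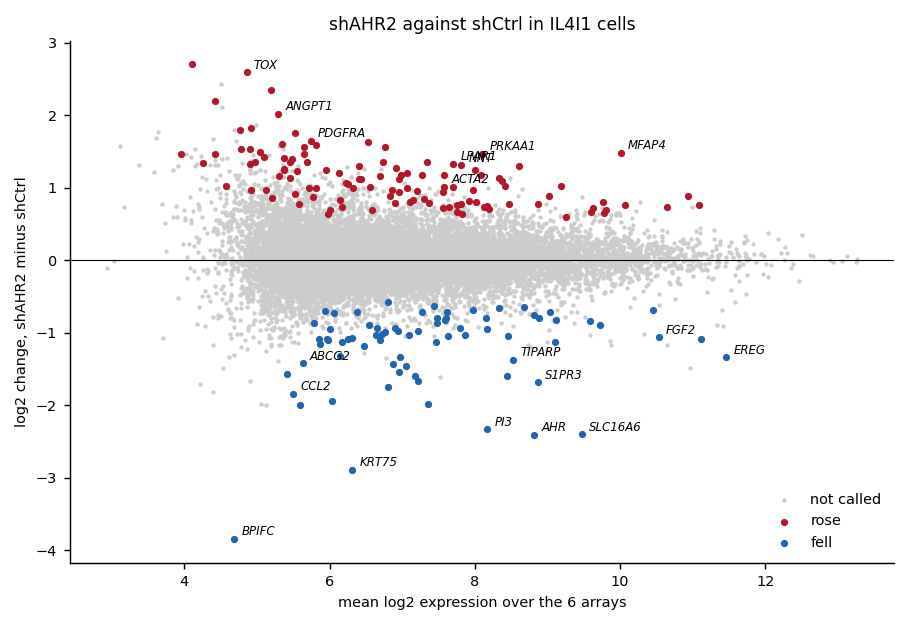
Each point is 1 of the 15529 genes, with its mean log2 expression over the 6 arrays on the x axis and its log2 change, shAHR2 minus shCtrl in IL4I1 cells, on the y axis. Red points are the 119 genes that rose and blue points the 76 that fell at a limma adjusted p under 0.05; AHR (-2.41) and SLC16A6 (-2.40) stand out among the brighter genes that fell.

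Among the textbook targets of AHR, a pair of 9 fell and 0 rose, where 0.489% of all genes tested fell and 0.766% rose. TIPARP, the ADP-ribosyltransferase that restrains AHR, read 9.42, 9.19 and 9.03 with shCtrl and 7.95, 7.71 and 7.86 with shAHR2. ABCG2, a drug exporter of the cell membrane, read 6.27, 6.42 and 6.33 with shCtrl and 4.58, 5.09 and 5.08 with shAHR2. Neither gene's groups overlapped. TIPARP changed by -1.37 ± 0.18 and ABCG2 by -1.42 ± 0.21 (limma adjusted p = 0.0014 and 0.0027), and both calls held with any 1 of the 6 arrays left out.

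CYP1B1, a cytochrome P450 that oxidises oestrogens and polycyclic hydrocarbons, read 10.85, 10.97 and 10.72 with shCtrl and 9.68, 9.96 and 9.83 with shAHR2. Its groups did not overlap, as was so in 18.8% of the genes tested, but the change of -1.02 ± 0.28 did not pass the test over all genes (limma adjusted p = 0.088). AHRR, the AHR repressor, read 8.44, 8.35 and 7.95 against 7.70, 7.77 and 7.92. Its highest shAHR2 array lay just under its lowest shCtrl array, and the change was -0.45 ± 0.17 (adjusted p = 0.27). The other members lay near their shCtrl level: the NRF2 gene NFE2L2 at -0.22 ± 0.15, the quinone reductase NQO1 at 0.05 ± 0.20, the amino acid transporter SLC7A5 at -0.01 ± 0.28, the liver P450 CYP1A2 at -0.06 ± 0.35 and the aldehyde dehydrogenase ALDH3A1 at 0.09 ± 0.25. The median of the 9 was -0.22, against 0.02 over all genes.

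**Figure D2:**
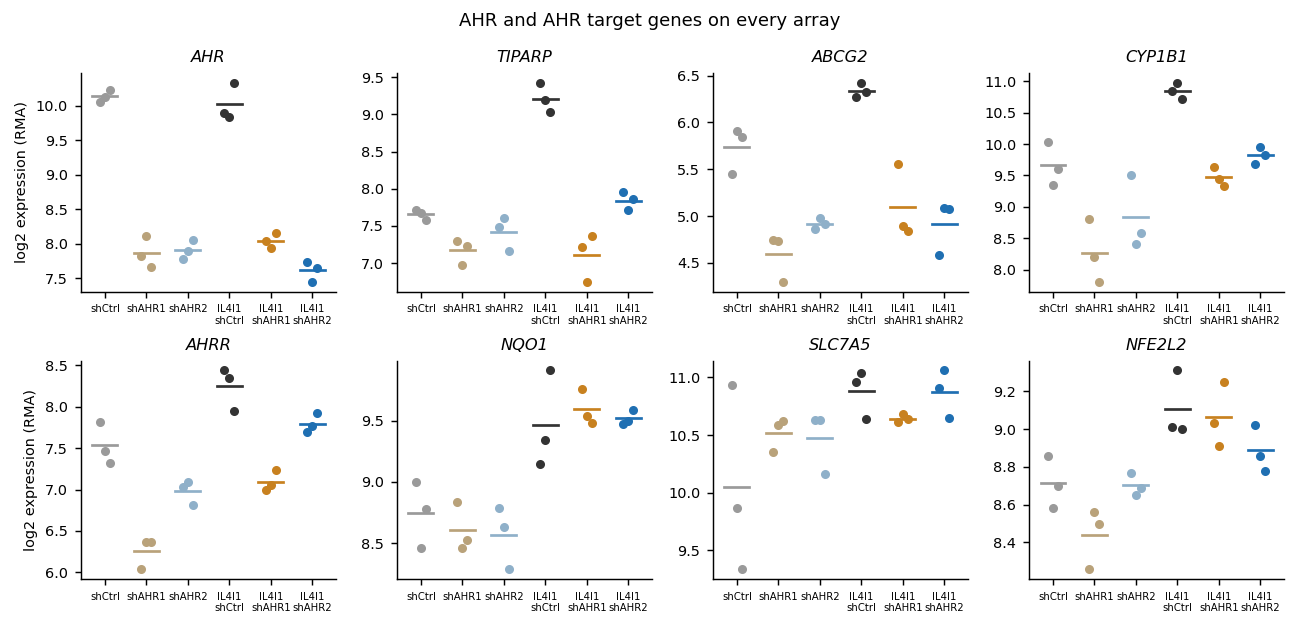
Log2 expression (y axis, RMA units, a separate range in each panel) of AHR and 7 AHR core targets in the 6 groups on the x axis, with 1 point per array and a bar at the mean of 3. In the IL4I1 groups TIPARP lies between 9.03 and 9.42 with shCtrl and between 7.71 and 7.95 with shAHR2, while the NQO1 and SLC7A5 arrays of these groups overlap.

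A wider list of genes reported to respond to AHR held falls and rises. Of 23 measured members 4 fell, the transporter SLC16A6, the EGF receptor ligand EREG, the hyaluronan synthase HAS2 and the chemokine CCL20, and 2 rose, the tryptophan dioxygenase TDO2 and the lysophosphatidic acid receptor LPAR1. The list's median was -0.39. Over all genes tested 0.489% fell and 0.766% rose. SLC16A6, of the monocarboxylate transporter family, read 11.01, 10.79 and 10.19 with shCtrl and 8.51, 8.31 and 7.98 with shAHR2. It changed by -2.40 ± 0.35 (limma adjusted p = 0.0028), nearly as much as AHR itself. EREG, epiregulin, was among the brightest genes that fell, from 12.15, 12.05 and 12.18 to 10.68, 10.78 and 10.90. Neither gene's arrays overlapped. LPAR1 went the other way, from 6.95, 7.16 and 7.0 to 8.33, 8.48 and 8.30 (1.33 ± 0.18, adjusted p = 0.0017). Partners and chaperones of AHR, such as ARNT2 (-0.43 ± 0.31) and the coactivator NCOA1 (0.24 ± 0.16), had 0 of 10 members called and a median of 0.07.

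The naming rule took the called genes with the largest changes. It required no overlap between the arrays and a brighter group mean that reached the median of all probe sets. The lack of overlap described for these genes therefore follows from the rule. The 15 it gave among falling genes were of mixed function: BPIFC, KRT75, AHR, SLC16A6, PI3, ZNF474, KRT33B, CCNJ, GK5, S1PR3, YRDC, CCL20, IGFBP4, TREM1 and HAS2. KRT75, a keratin of the hair follicle, read 8.15, 8.15 and 6.96 with shCtrl and 5.50, 4.62 and 4.48 with shAHR2. BPIFC, a relative of the bactericidal lipid-binding proteins, read 7.06, 6.39 and 6.40 against 2.55, 2.53 and 3.24. The shAHR2 mean of BPIFC lay in the lowest 1% of group means on these arrays (4.51 or less), and the fall is called but not sized (limma adjusted p = 4.2e-05). The shCtrl arrays of both genes were all higher than the shAHR2 arrays.

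Several of the other deep falls were in genes of signalling and metabolism. S1PR3, a receptor for sphingosine-1-phosphate, read 9.76, 9.92 and 9.45 with shCtrl and 8.12, 7.89 and 8.08 with shAHR2. YRDC, an enzyme that modifies transfer RNA, read 8.10, 8.23 and 7.82 against 6.33, 6.54 and 6.26. Both sets of arrays were well apart, with changes of -1.68 ± 0.24 and -1.67 ± 0.23 (limma adjusted p = 0.0025 and 0.0018). GK5, of the glycerol kinase family (-1.75 ± 0.26), TREM1, an activating receptor of myeloid cells (-1.46 ± 0.22), the cyclin CCNJ (-1.94 ± 0.29) and the zinc finger gene ZNF474 (-2.0 ± 0.27) fell too, with adjusted p between 0.0017 and 0.0028. On the 6 arrays alone CCNJ did not pass (limma adjusted p = 0.061).

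Some of the falling genes depended on single arrays. PI3, the elastase inhibitor elafin, read 10.38, 9.35 and 8.27 with shCtrl and 7.30, 6.99 and 6.73 with shAHR2, and the hair keratin KRT33B read 9.35, 7.83 and 7.83 against 6.29, 6.69 and 6.08. The shCtrl arrays of both spread over more than 1 unit, though none reached down to the shAHR2 arrays. PI3 changed by -2.33 ± 0.41 and KRT33B by -1.98 ± 0.35 (limma adjusted p = 0.0090 and 0.0087), and without shAHR2 replicate 3 each had an adjusted p of 0.055. CCL20 (-1.60 ± 0.37, adjusted p = 0.045) and HAS2 (-1.43 ± 0.31, adjusted p = 0.033) were called in 1 of the 6 leave-out fits, the one without shCtrl replicate 3. In the other leave-out fits their adjusted p reached 0.20 and 0.15. On the 6 arrays alone PI3 (0.11), KRT33B (0.12), CCL20 (0.10) and HAS2 (0.18) all lost their calls, and CCL20 lost its call with the replicate block too. IGFBP4, a binding protein of insulin-like growth factors, fell by 1.59 ± 0.35 on the log2 scale (adjusted p = 0.036), but its adjusted p lay between 0.067 and 0.14 when any 1 of the 6 arrays was left out.

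The rising genes that the same rule gave included receptors, kinases and secreted factors. Dimmer genes with larger rises, such as RORB and TOX below, lie outside it. The 15 were PDGFRA, INSYN2B, SLC35F1, STON2, MFAP4, PRKAA1, KCTD4, STK40, LPAR1, NNT, TGFBR2, TMT1B, OLFML2A, CSF1 and NFIA. PDGFRA, a receptor for platelet-derived growth factor that is often active in glioma, read 4.82, 4.82 and 5.12 with shCtrl and 6.10, 6.65 and 6.94 with shAHR2. TGFBR2, a receptor chain for TGF-beta, read 7.76, 8.23 and 7.90 against 9.52, 9.22 and 9.04. No shCtrl array of either receptor reached the shAHR2 range. PDGFRA changed by 1.65 ± 0.26 and TGFBR2 by 1.30 ± 0.19 (limma adjusted p = 0.0040 and 0.0028). Fitted on the 6 arrays alone, PDGFRA (0.052), TGFBR2 (0.059), OLFML2A (0.054), CSF1 (0.095) and NFIA (0.10) did not pass, though each kept its call in all 6 leave-out fits. TGFBR1, the partner chain of TGFBR2, was named after its values were seen: it fell, by 0.93 ± 0.20 on the log2 scale (adjusted p = 0.031), with means of 8.26 and 7.33. Its call was kept only without shCtrl replicate 1 (up to 0.13 otherwise).

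A pair of kinase genes rose to a like extent. PRKAA1, the alpha catalytic chain of the energy sensor AMPK, read 7.23, 7.15 and 7.73 with shCtrl and 9.03, 8.69 and 8.80 with shAHR2. STK40, a kinase-related protein, read 6.74, 6.66 and 6.58 against 8.12, 8.27 and 7.67. Their changes of 1.47 ± 0.19 and 1.36 ± 0.21 (limma adjusted p = 0.0014 and 0.0043) held with any 1 array left out. CSF1, the macrophage growth factor, rose by 1.25 ± 0.19 (adjusted p = 0.0028), the developmental transcription factor NFIA by 1.24 ± 0.21 (adjusted p = 0.0060) and the matrix protein gene OLFML2A by 1.27 ± 0.21 (adjusted p = 0.0065).

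INSYN2B, of a family of inhibitory synapse proteins, read 7.32, 7.32 and 7.41 with shAHR2 against 5.50, 5.74 and 5.92 with shCtrl (1.63 ± 0.19, adjusted p = 6.6e-04). MFAP4, a microfibril protein, read 8.63, 9.32 and 9.84 with shCtrl and 10.83, 10.67 and 10.74 with shAHR2, a change of 1.48 ± 0.31 (adjusted p = 0.031). Of the leave-out fits, only the one without shCtrl replicate 3 kept the calls of MFAP4, KCTD4 and TMT1B, whose adjusted p reached 0.14 in the others. SLC35F1 was called only in the one without shAHR2 replicate 2 and also reached 0.14. STON2, an endocytic adaptor, lost its call without shAHR2 replicate 3 (adjusted p = 0.069) or shCtrl replicate 1 (0.068).

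**Figure D3:**
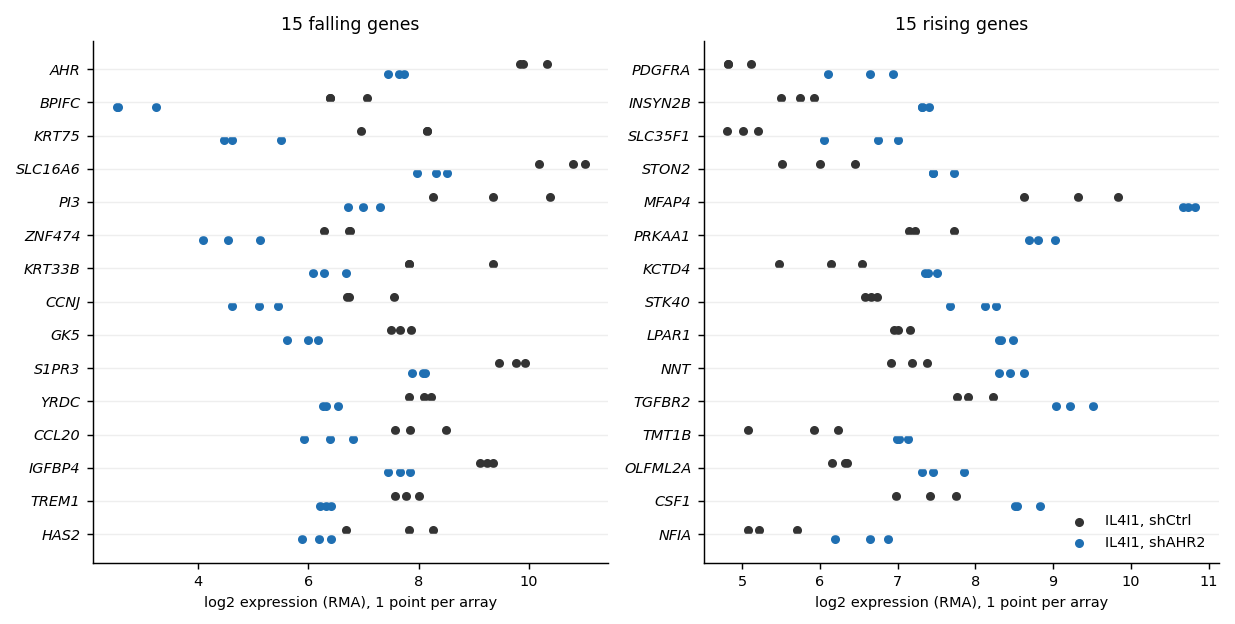
Log2 expression (x axis, RMA units) on each array of the 15 falling and 15 rising genes named by size of change, with shCtrl arrays in black and shAHR2 arrays in blue, 3 points each. The colours do not overlap in any of the 30 rows, as the naming rule required, and the shCtrl points of PI3 spread from 8.27 to 10.38.

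On the list of tryptophan breakdown and NAD synthesis 3 of 15 measured members rose and 0 fell. Of all genes tested 0.766% rose and 0.489% fell. Among the 15, 9 had a higher and 6 a lower mean with shAHR2, with a list median of 0.11. TDO2, which opens the tryptophan ring and forms a precursor of the AHR ligand kynurenine, read 6.26, 6.31 and 6.63 with shCtrl and 7.51, 7.27 and 7.97 with shAHR2. QPRT, which turns quinolinate into an NAD precursor, read 8.48, 8.56 and 8.69 against 9.61, 9.42 and 9.37. NNT, a mitochondrial transhydrogenase that is on the list but belongs to neither pathway, read 6.91, 7.18 and 7.38 against 8.31, 8.45 and 8.63. In each of the 3 genes every shAHR2 array was above every shCtrl array. The changes were 1.18 ± 0.21, 0.89 ± 0.17 and 1.31 ± 0.16 (limma adjusted p = 0.010, 0.015 and 0.0011). NNT kept its call with any array left out. TDO2 lost its call without shAHR2 replicate 3 (adjusted p = 0.065) or shCtrl replicate 1 (0.057), and QPRT without replicate 1 or 2 of either group (0.054 to 0.083).

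Amino acid transport and the amino acid stress response showed little change. SLC43A2, a carrier of large neutral amino acids, was the 1 gene called of 25 transporters and fell by 1.1 ± 0.26 on the log2 scale (adjusted p = 0.049), a call lost with any 1 array left out (0.051 to 0.21), on the 6 arrays alone and with quantile normalization. SLC3A1 (0.89 ± 0.22, adjusted p = 0.065) and the glutamate transporter SLC1A3 (0.74 ± 0.19, adjusted p = 0.072) were higher without passing. Of 30 genes of the ATF4 response and 22 NRF2 targets 0 were called by limma, with medians of 0.08 and 0.02. WARS1, the tryptophanyl-tRNA synthetase, was at 0.81 ± 0.23 (adjusted p = 0.10). Within the SLC16 family, SLC16A6 was the 1 gene called of 8. SLC16A7 (-0.56 ± 0.23), SLC16A4 (-0.49 ± 0.26) and SLC16A3 (-0.20 ± 0.17) did not pass.

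Cytokine genes lay mostly below their shCtrl level. Of 26 measured cytokines and chemokines 21 had a lower mean with shAHR2, and the median was -0.64, against 0.02 for all genes and 47.0% of all genes lower. The test called 2 that fell, CCL2 and CCL20, and 1 that rose, CSF1, where 0.489% of all genes tested fell and 0.766% rose. CCL2, the chemokine that draws monocytes, read 6.01, 6.55 and 6.69 with shCtrl and 4.56, 4.78 and 4.39 with shAHR2, with no overlap (-1.84 ± 0.24, limma adjusted p = 0.0014). CXCL8, the neutrophil chemokine, was at -1.49 ± 0.36 and did not pass (adjusted p = 0.059). The 5 leukocyte markers given above also had a lower mean level, and their part in these values was not tested. Of 23 cytokine receptor genes IL1RAP, the accessory chain of the interleukin 1 receptor, fell (-0.94 ± 0.18, adjusted p = 0.017). Its call was lost without replicate 1 or 3 of shAHR2 or replicate 1 or 2 of shCtrl (0.079 to 0.088).

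Of the genes on the NF-kB, AP-1, interferon and antigen-processing lists 0 were called by limma. The lists do not hold every such gene: CYLD, a deubiquitinase that restrains NF-kB and was named after its values were seen, fell by 0.71 ± 0.15 on the log2 scale (adjusted p = 0.026), a call kept only without shAHR2 replicate 1 or shCtrl replicate 3 (up to 0.11 otherwise). The NF-kB subunits and inhibitors had a median of -0.21 over 19 genes, with VCAM1 at -0.62 ± 0.20 (adjusted p = 0.16). The 25 AP-1 and immediate early genes had a median of -0.16, with FOSB at -0.77 ± 0.20 (adjusted p = 0.082) and IER3 at -1.03 ± 0.29 (0.10). Interferon-induced genes had a median of 0.11 over 28 genes, with IRF1 at -0.89 ± 0.25 and IFI44 at 0.83 ± 0.24 (adjusted p = 0.11 for each). The 20 antigen-processing genes had a median of -0.09.

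Genes of cell division had higher means with shAHR2, but none of them passed the test in the mitosis and replication lists. All 37 mitosis and cytokinesis genes had a higher mean, with a median of 0.75, and 28 of 32 DNA replication genes, with a median of 0.42. Over all genes, 47.0% had a lower mean. Called were 0 of 37 and 0 of 32. Under shAHR1 in IL4I1 cells the medians of the mitosis and replication lists were -0.23 and 0.12. Under shAHR2 without IL4I1 they were 0.43 and 0.17. Whether the hairpins differ over these lists was not tested. The mean level of the mitosis list was 4.77, 5.21 and 6.10 on the shCtrl arrays and 5.42, 6.41 and 6.27 on the shAHR2 arrays. Replicate 3 of shCtrl lay above replicate 1 of shAHR2, so the groups overlapped. The helicase subunit MCM5 was at 1.29 ± 0.41 (limma adjusted p = 0.16) and the spindle motor KIF11 at 1.20 ± 0.57 (0.44). E2F7, a repressor of the cell cycle, was the 1 gene called of 26 cyclins, inhibitors and E2F factors. It rose from a level too dim to size (adjusted p = 0.031) and kept its call in 1 of the 6 leave-out fits, the one without shCtrl replicate 3. It lost it on the 6 arrays alone, with trend and robust fitting and with quantile normalization. The cyclin-like CCNJ, which fell, is not on that list. Of 23 p53 targets TP53INP1 (0.87 ± 0.19, adjusted p = 0.033) and ZMAT3 (0.75 ± 0.17, adjusted p = 0.048) rose and 0 fell. Among all genes tested 0.766% rose and 0.489% fell. TP53INP1 kept its call only without shAHR2 replicate 2 and ZMAT3 only without shCtrl replicate 3 (adjusted p up to 0.15 and 0.20 in the other leave-out fits).

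Genes of the matrix and of its receptors went both ways. Of 33 collagen and fibrillar matrix genes MFAP4 and the fibrillin FBN2 rose, and the collagen COL5A2 and the lysyl oxidase LOXL2 fell, with a median of 0.00. FBN2 changed by 0.73 ± 0.16 and COL5A2 by -0.80 ± 0.17 (limma adjusted p = 0.032 and 0.028). Of 25 integrins and laminins ITGB3 fell (-0.89 ± 0.20, adjusted p = 0.039), while ITGA2 (0.90 ± 0.22, adjusted p = 0.058) and ITGA4 (0.98 ± 0.26, 0.081) were higher without passing. Of 26 metalloproteinases and inhibitors ADAM12 (-0.64 ± 0.14) and ADAMTS6 (-0.87 ± 0.18) fell (adjusted p = 0.039 and 0.025). HAS2 was the 1 gene called of 17 in hyaluronan metabolism, where CD44, the hyaluronan receptor, was at 0.27 ± 0.15. Of these 6 calls beside MFAP4 and HAS2, those of FBN2, LOXL2, ITGB3 and ADAM12 were lost with any 1 array left out (0.052 to 0.17). COL5A2 kept its call only without shCtrl replicate 1, and ADAMTS6 only without shCtrl replicate 3 (up to 0.13 and 0.12 otherwise).

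ACTA2, the smooth muscle actin, was the 1 gene called of 14 contractile genes. It read 7.03, 7.07 and 7.13 with shCtrl and 8.09, 8.11 and 8.06 with shAHR2. Within each group the arrays lay no more than 0.1 apart, and the change was 1.01 ± 0.12 (limma adjusted p = 0.0011). Its call held with any array left out. CNN1, calponin, was at -0.37 ± 0.23. Of 18 YAP target genes F3, tissue factor, fell (-1.04 ± 0.19, adjusted p = 0.011), a call lost without shAHR2 replicate 2 (0.067) or shCtrl replicate 1 (0.061), and CCN2 was at 0.78 ± 0.26 (adjusted p = 0.17).

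Keratins gave 3 falls of 13 measured genes and 0 rises, where 0.489% of all genes tested fell and 0.766% rose. KRT80, a keratin of differentiating epithelia, read 6.83, 6.75 and 6.78 with shCtrl and 6.0, 5.57 and 5.57 with shAHR2 (-1.08 ± 0.20, limma adjusted p = 0.014), beside KRT75 and KRT33B. The median of the 13 was -0.01. KRT80 lost its call without shAHR2 replicate 2 (0.072) or 3 (0.077) or shCtrl replicate 1 (0.061).

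Growth factor genes changed in both directions, as did the genes tested as a whole (0.766% rose and 0.489% fell). EREG was the 1 gene called of 10 EGF family ligands and receptors (-1.34 ± 0.18, limma adjusted p = 0.0018), and EGFR was at 0.23 ± 0.17. Of 29 genes of other growth factor families PDGFRA, ANGPT1 and IGFBP5 rose, and FGF2 and IGFBP4 fell. FGF2, the basic fibroblast growth factor, read 11.38, 10.84 and 10.95 with shCtrl and 10.02, 10.01 and 9.98 with shAHR2. The shAHR2 arrays were nearly equal and all lower (-1.06 ± 0.18, adjusted p = 0.0071). The angiopoietin ANGPT1 read 3.54, 4.87 and 4.43 against 5.91, 6.57 and 6.42, and IGFBP5 read 3.99, 4.26 and 4.66 against 5.99, 5.43 and 5.54. Both rose from levels too dim to size (adjusted p = 0.0040 and 0.018). IGFBP5 lost its call without replicate 1 or 3 of shAHR2 or replicate 1 or 2 of shCtrl (0.061 to 0.10). On the 6 arrays alone FGF2, ANGPT1 and IGFBP5 did not pass (0.084 for each). Of 26 BMP and WNT genes the receptor BMPR2 rose (0.82 ± 0.16, adjusted p = 0.023) and the ligand BMP6 fell (-1.16 ± 0.25, adjusted p = 0.032), both calls lost with any 1 array left out (0.053 to 0.13).

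Most of the few called genes on the glial, neuronal and developmental factor lists rose. Over all genes tested, rises were also the more frequent calls (0.766% against 0.489% for falls). Of 29 developmental transcription factors TOX, RORB and NFIA rose and RORA fell, with a median of 0.25. RORB, a retinoid-related orphan receptor, read 4.68, 4.51 and 4.76 with shCtrl and 6.68, 6.13 and 6.42 with shAHR2 (1.76 ± 0.29, limma adjusted p = 0.0060). TOX, a chromatin-binding factor, rose from 3.34, 3.56 and 3.80, a level at the floor of the arrays, to 6.30, 6.16 and 6.02 (adjusted p = 1.0e-04, no size given). RORB's relative RORA went the other way, from 8.5, 8.29 and 8.36 to 7.33, 7.23 and 7.50 (-1.03 ± 0.20, adjusted p = 0.015), a call lost without replicate 1 or 2 of shAHR2 or replicate 1 of shCtrl (up to 0.075). Of 33 neuronal adhesion and guidance genes NCAM1 (1.21 ± 0.20, adjusted p = 0.0059) and the protocadherin PCDH10 (0.86 ± 0.20, adjusted p = 0.045) rose. PCDH10, among the leave-out fits, kept its call only without shCtrl replicate 3 (up to 0.20 otherwise), and it also lost it on the 6 arrays alone, with trend and robust fitting, with quantile normalization and with the replicate block. PDGFRA was the 1 gene called of 20 glial and stem markers, with the astrocyte filament GFAP at 0.80 ± 0.20 (adjusted p = 0.058) and SOX9 at 0.67 ± 0.20 (0.13).

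The remaining lists had few calls or none. Of 15 cholesterol synthesis genes LSS, the lanosterol synthase, rose (0.73 ± 0.14, limma adjusted p = 0.018), a call lost without shAHR2 replicate 2 or 3 or shCtrl replicate 1 or 2 (0.066 to 0.11). Of 29 hypoxia and glycolysis genes 0 were called, and 21 had a lower mean, with ENO2 at -0.74 ± 0.18 (adjusted p = 0.062) and PFKP at -0.56 ± 0.14 (0.066). Of 15 ribosomal protein genes and 7 reference genes 0 were called, with medians of 0.04 and 0.05.

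**Figure D4:**
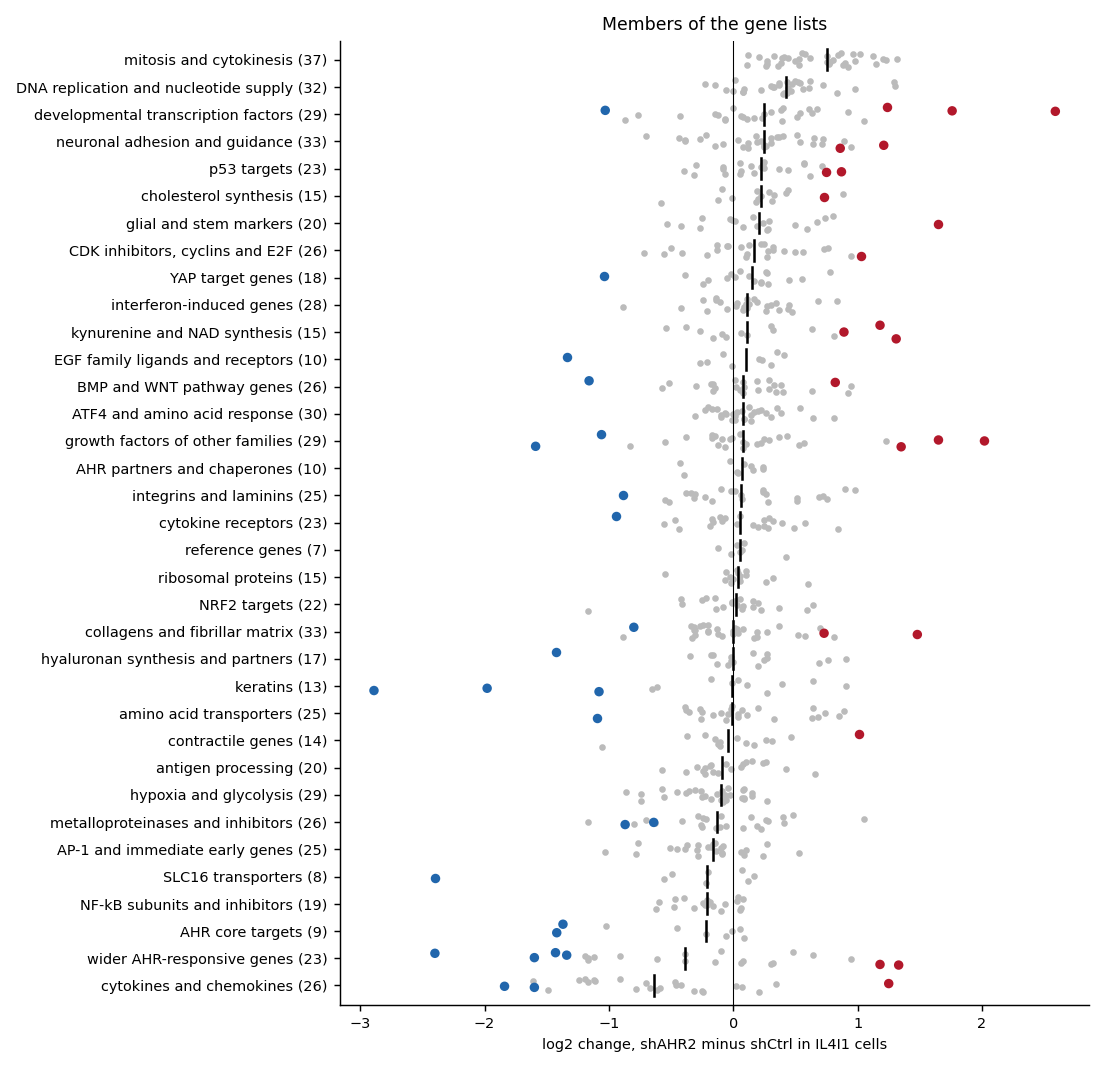
Each point is 1 measured gene of a list, with its log2 change (shAHR2 minus shCtrl in IL4I1 cells) on the x axis, lists in rows with their number of measured genes, and a black bar at each list's median. Red and blue points are genes that rose or fell at a limma adjusted p under 0.05 and grey points did not pass; all 37 mitosis genes lie right of 0 in grey, and the cytokine list has the lowest median, -0.64.

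The same hairpin was set against shCtrl in cells without IL4I1, on 6 other arrays, to ask whether the changes need IL4I1. Much of the response was seen in both settings. Without IL4I1 shAHR2 called 114 genes, 73 higher and 41 lower (0.734% of those tested, 0.47% higher and 0.264% lower), and 58 genes were called in both settings, 38 that rose and 20 that fell. These were 29.7% of the genes called with IL4I1 and 50.9% of those called without it, and 0 genes were called in opposite directions. Of the 195 genes called with IL4I1, 188 (96.4%) had the same sign without it, against 61.3% of all genes. The settings share no array, but they do share the hairpin virus and the spread estimated over all groups. The 58 shared calls became 26 to 32 without any 1 of the shAHR2 arrays with IL4I1, 29 and 31 without shCtrl replicate 1 or 2 with IL4I1, 30 to 33 without 1 of the shAHR2 arrays lacking IL4I1, and 29 without shCtrl replicate 2 lacking IL4I1. Fitted only on the groups compared, 1 gene, AHR, was shared.

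AHR fell without IL4I1 from 10.05, 10.13 and 10.23 to 7.78, 7.90 and 8.05, a change of -2.23 ± 0.16 (limma adjusted p = 4.4e-06). SLC16A6 fell there from 9.22, 8.00 and 7.72 to 6.69, 6.17 and 5.78. Its changes of -2.40 ± 0.35 with IL4I1 and -2.10 ± 0.35 without it were close although its level differed, with shCtrl means of 10.66 and 8.32. YRDC (-1.67 ± 0.23 with and -1.45 ± 0.23 without IL4I1), GK5 (-1.75 ± 0.26 and -1.37 ± 0.26), EREG (-1.34 ± 0.18 and -1.41 ± 0.18) and the membrane protein gene TMEM255B (-1.34 ± 0.23 and -1.26 ± 0.23) also fell in both. PRKAA1 (1.47 ± 0.19 with and 1.28 ± 0.19 without), STK40 (1.36 ± 0.21 and 1.20 ± 0.21), NNT (1.31 ± 0.16 and 1.17 ± 0.16), the ubiquitin ligase subunit FBXL7 (1.17 ± 0.15 and 1.20 ± 0.15), PDGFRA (1.65 ± 0.26 and 1.19 ± 0.26) and SLC35F1 rose in both. SLC35F1 started without IL4I1 from a mean in the lowest 1%.

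Whether the change differed with IL4I1 was tested directly, and 2 of 15529 genes (0.0129%) passed, BPIFC and CCL2. In both, the log2 change under shAHR2 was lower with IL4I1 than without it. CCL2 read 6.88, 5.96 and 6.42 with shCtrl and 7.09, 7.26 and 6.83 with shAHR2 in cells without IL4I1, where its change was 0.64 ± 0.24 (adjusted p = 0.29), against -1.84 ± 0.24 with IL4I1. The difference of the changes was -2.49 ± 0.34 (limma adjusted p = 0.016). BPIFC read 3.93, 3.21 and 3.42 with shCtrl and 3.80, 3.03 and 2.66 with shAHR2 in cells without IL4I1, all below its 3 arrays of IL4I1 cells with shCtrl (adjusted p = 0.016). Without IL4I1 it lay at the floor of the arrays already with shCtrl, where a fall could not have been read. The BPIFC call therefore does not show that its response to shAHR2 differs with IL4I1. At an unadjusted p under 0.05 there were 670 genes (4.31%), 45 of them among the 195. The 2 calls became 0 when only the groups compared were fitted. They also became 0 without shAHR2 replicate 1 or shCtrl replicate 3 with IL4I1, and 0 without shAHR2 replicate 1 or 2 or shCtrl replicate 2 or 3 lacking IL4I1. Without shAHR2 replicate 2 or 3 with IL4I1, there was 1 call.

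Other genes had a large fall with IL4I1 and a small change without it, but the difference did not pass. PI3 read 7.49, 6.34 and 6.96 with shCtrl and 7.05, 7.06 and 6.80 with shAHR2 in cells without IL4I1, where its change was 0.04 ± 0.41. The difference of its changes was -2.37 ± 0.58 (adjusted p = 0.70). For KRT75 the difference was -2.18 ± 0.56 (0.70), for CCL20 -1.89 ± 0.52 (0.80), for KRT33B -1.73 ± 0.49 (0.82) and for TIPARP -1.13 ± 0.25 (0.64). The 95% interval for TIPARP ran from -1.66 to -0.60 before any adjustment for the number of genes. For AHR the difference was -0.19 ± 0.23, with an interval from -0.67 to 0.30.

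**Figure D5:**
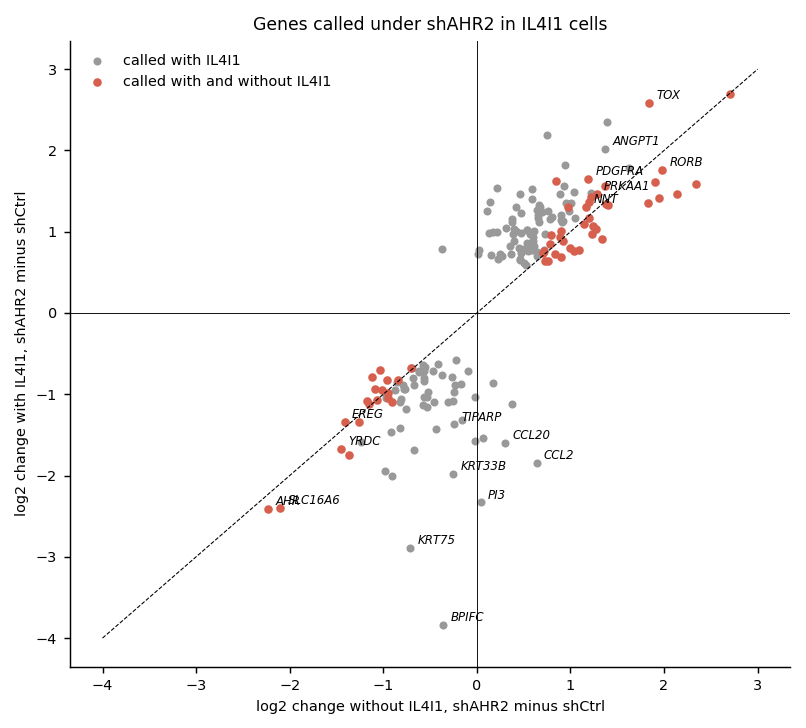
Each point is 1 of the 195 genes called under shAHR2 in IL4I1 cells, with its log2 change (shAHR2 minus shCtrl) without IL4I1 on the x axis and with IL4I1 on the y axis; the dashed line marks equal changes. Red points are the 58 genes called in both settings, among them AHR and SLC16A6 near the line, and BPIFC and CCL2 lie well below it.

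In IL4I1 cells shAHR2 was also set directly against shAHR1, to ask where the hairpins differ. At a limma adjusted p under 0.05, 0 genes (0.0%) differed, with 1131 (7.28%) at an unadjusted p under 0.05 and a lowest adjusted p of 0.0565. Of the 195 genes called for shAHR2, 73 had an unadjusted p under 0.05 in this comparison. Other settings called between 0 and 29 genes, 29 when dim genes were left out and 18 with limma's trend and robust options. The missed threshold therefore does not show that the hairpins act alike, and the median 95% interval reached 0.467 to either side of the estimate.

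AHR itself read 8.04, 7.94 and 8.16 with shAHR1 and 7.74, 7.45 and 7.65 with shAHR2, a difference of -0.43 ± 0.16 with an interval from -0.78 to -0.09 (adjusted p = 0.55). The lowest shAHR1 array lay above the highest shAHR2 array. TIPARP had higher values with shAHR2, at 7.95, 7.71 and 7.86 against 7.21, 6.75 and 7.37 (0.73 ± 0.18, interval 0.36 to 1.1, adjusted p = 0.22), and so had AHRR, at 7.70, 7.77 and 7.92 against 7.0, 7.05 and 7.24 (0.70 ± 0.17, interval 0.33 to 1.06, adjusted p = 0.22). The arrays of neither gene overlapped, as was so for 14.5% of all genes. CYP1B1 differed by 0.35 ± 0.28 (interval -0.23 to 0.93) and ABCG2 by -0.18 ± 0.21 (interval -0.61 to 0.26). SLC16A6 differed by 0.71 ± 0.35 (interval -0.04 to 1.45) and PRKAA1 by 0.23 ± 0.19 (interval -0.16 to 0.63). STK40 differed by -0.15 ± 0.21 (interval -0.60 to 0.30) and ACTA2 by 0.07 ± 0.12 (interval -0.19 to 0.33). For other genes the interval left out 0. YRDC differed by -0.98 ± 0.23 (interval -1.47 to -0.49) and TGFBR2 by 0.94 ± 0.19 (interval 0.53 to 1.35). Against shCtrl, shAHR1 changed YRDC by -0.69 ± 0.23 and TGFBR2 by 0.35 ± 0.19 (limma adjusted p = 0.17 and 0.49). The unadjusted limma p between the hairpins was 4.7e-05 for TOX, 2.3e-04 for KRT80, 7.6e-04 for TGM2 and 9.8e-04 for NCAM1. None of these genes passed.

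The genes with the lowest p between the hairpins, named after their values were seen, had no overlap between shAHR1 and shAHR2 arrays. CCL2 read 6.44, 5.91 and 5.99 with shAHR1 against 4.56, 4.78 and 4.39 with shAHR2 (-1.54 ± 0.24). PDGFRA read 5.58, 4.61 and 5.12 against 6.10, 6.65 and 6.94 (1.46 ± 0.26). In both genes the shAHR1 arrays overlapped those of shCtrl, which are given above. GREM1, a secreted antagonist of BMP, read 10.26, 10.16 and 10.93 with shCtrl, 8.66, 7.81 and 8.59 with shAHR1 and 9.76, 9.94 and 10.10 with shAHR2 (1.58 ± 0.26 between the hairpins). COL15A1, a basement membrane collagen, read 7.32, 7.29 and 7.13, then 8.30, 8.22 and 8.18, then 7.18, 6.97 and 7.0 in the same order (-1.19 ± 0.19). In both genes the shAHR1 arrays lay further from shCtrl than the shAHR2 arrays. TGFBR1 (-1.15 ± 0.20), the phospholipase PLCB1 (-1.04 ± 0.17), the integrin ITGA2 (1.24 ± 0.22) and the ribonuclease RNASE4 (0.86 ± 0.15) also had an adjusted p of 0.057, as had the 4 genes before them, and none of them passed.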

How the data were processed

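The deposited values were log2 expression per probe set, made by the authors with oligo and RMA, per the submitters' processing notes (no version is named). The RMA method makes array distributions alike, which hides any change in total RNA, and it keeps no depth: 3 arrays per group limit the precision (median standard error of a log2 change 0.220). Medians of 6.46 to 6.53 and values of 1.11 to 13.4 were read as log2. The files give no scan or batch information.

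Of 18913 probe sets 15598 had 1 gene symbol, 870 several and 2445 none in the annotation. Symbols were updated through RefSeq (GRCh38.p14) in 1173 cases, and 58 were not listed there. For 66 genes with several probe sets the brightest was kept. CYP1A1 was not analysed here. The fit over all 15529 genes used limma 3.58.1 (lmFit, eBayes) under R 4.3.3, with 6 group means over all 18 arrays, and Benjamini-Hochberg adjusted p under 0.05 was called. With 3 arrays against 3, exact permutation reaches p = 0.1 at best, so single genes were tested in this fit. The fit was tested on simulated data.

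Named were AHR, IL4I1, the measured AHR core targets, up to 15 rising and 15 falling called genes with the largest change, no overlap between arrays and a brighter group at or above the overall probe set median (leaving out antisense and unnamed transcripts, immune receptor segments, olfactory receptors and small RNAs), the 4 members with the lowest adjusted p in each list, and up to 6 per direction shared by both settings or differing between them. Others are marked as named after their values were seen. The groups and gene lists were chosen with earlier results of these data known. No size is given for a change from or to a group mean of 4.51 or less, the lowest 1%. Alternatives were a fit on the compared groups, trend and robust, array weights, no dim genes, equal medians, quantile normalization, the mean of probe sets, a replicate block, a minimum change of 1 and left-out arrays.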

Additional observations from a re-analysis of the deposited data

Results flagged for a closer look

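The genes BPIFC and CCL2 passed the direct test of whether the shAHR2 change differs between cells with and without IL4I1. For CCL2 the change with IL4I1 minus the change without it was -2.49 on the log2 scale, with shCtrl and shAHR2 means of 6.42 and 4.57 with IL4I1 and 6.42 and 7.06 without it. For BPIFC the fitted difference was -3.48, which is not read as a size, since the means were 6.62 and 2.77 with IL4I1 and 3.52 and 3.16 without it and the last 3 lie at the floor of the arrays. A fall from the floor without IL4I1 could not have been read, so this pass does not show a differing response of BPIFC. Groups of 3 arrays were not examined for outlying arrays.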

How the results depend on the processing

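AHR kept its call and a change between -2.26 and -2.50 in every setting tried. The 195 genes called for shAHR2 against shCtrl became 39 on the 6 arrays alone, 399 with array weights and 109 with a minimum change of 1, and ranged from 75 to 168 with 1 of the 6 arrays left out. In the other settings they stayed between 192 and 277. Between shAHR2 and shAHR1, 0 genes became 18 with trend and robust, 17 with array weights, 29 without dim genes, 14 with equal medians, 13 with quantile normalization and 1 without shCtrl replicate 2 lacking IL4I1 (range 0 to 1 over left-out arrays), a choice made after seeing the data. The 2 genes that differed with IL4I1 became 0 on the groups compared, 1 with trend and robust and 1 with quantile normalization, and 0 to 3 with an array left out. The 58 genes called with and without IL4I1 became 1 on the groups compared, 96 with trend and robust, 103 without dim genes and 29 with a minimum change, and 26 to 48 with an array left out. Quantile normalization moved the main split to 108 higher and 89 lower. The labels number replicates 1 to 3 in each group. Deviations of same-numbered arrays of the main groups did not correlate (0.009, -0.004 and -0.001). For shCtrl and shAHR2 without IL4I1 they correlated at 0.281, 0.038 and 0.324. For shAHR1 and shAHR2 with IL4I1 the values were 0.021, -0.008 and 0.208, and for shCtrl with and without IL4I1 0.062, 0.083 and 0.283. Shared structure between some same-numbered arrays outside the main comparison is therefore possible and was not tested. A fit with the replicate block gave 243 calls for the main comparison, 2 between the hairpins, 2 that differed with IL4I1 and 74 shared. Over the named genes 839 results of single settings kept their side of the threshold, 187 lost it, 4 gained it and 0 changed sign. The cause of these shifts was not tested beyond the smaller number of arrays or genes that some settings use. Dim genes limit the size that can be given for 7 named genes.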

Other observations

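Genes of blood clotting, and beside them the transglutaminase TGM2, were grouped after their values were seen and are described without a test of the group. They changed in both directions in IL4I1 cells with shAHR2. F3, tissue factor, which starts the cascade, and THBD, thrombomodulin, which turns thrombin against it, fell: THBD had means of 6.80 with shCtrl and 5.49 with shAHR2 (-1.32 ± 0.29, limma adjusted p = 0.037). TFPI, the inhibitor of tissue factor, rose from 9.35 to 10.17 (0.81 ± 0.17, adjusted p = 0.031). F2R, a thrombin receptor, rose from 6.37 to 7.34 (0.97 ± 0.14, adjusted p = 0.0020), and SERPINE2, a thrombin inhibitor, from 9.27 to 10.0 (0.72 ± 0.17, adjusted p = 0.044). The transglutaminase TGM2 fell from 11.66 to 10.57 (-1.09 ± 0.18, adjusted p = 0.0062). F2R and TGM2 kept their calls with any 1 of the 6 arrays left out. THBD, TFPI and SERPINE2 kept theirs only without shCtrl replicate 3 (adjusted p up to 0.17, 0.13 and 0.20 otherwise).

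Channel and receptor genes of excitable cells, also grouped after their values were seen, were among the dim genes that rose. The potassium channel KCNJ2 went from a mean of 4.93 to 6.16 (1.23 ± 0.19, limma adjusted p = 0.0033), the GABA receptor subunit GABRA2 from 4.66 to 6.08 (1.41 ± 0.30, adjusted p = 0.031), the acid-sensing channel ASIC1 from 5.54 to 6.73 (1.20 ± 0.26, adjusted p = 0.033) and LRRTM4, a synaptic adhesion protein, from 4.78 to 6.18 (1.4 ± 0.18, adjusted p = 0.0014). KCNJ2 and LRRTM4 kept their calls with any 1 array left out, GABRA2 only without shCtrl replicate 3 (up to 0.13 otherwise) and ASIC1 only without shCtrl replicate 2 (up to 0.16). The HLA class II genes HLA-DQA2 (-1.12 ± 0.19, adjusted p = 0.0084) and HLA-DQA1 (-0.95 ± 0.20, adjusted p = 0.031) fell. HLA-DQA2 lost its call without shAHR2 replicate 2 or shCtrl replicate 1 (0.053 in each), and HLA-DQA1 kept its call only without shAHR2 replicate 3 or shCtrl replicate 2 (up to 0.13 otherwise). They are near-identical copies that the probes may not tell apart.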
